A study of Homo sapiens with 63 samples.

Results

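The 10 mRNAs described here encode nucleolar factors of ribosome production, namely NOL6, NOP2, NOP56, NOP58, FBL, DKC1, NCL, NOLC1, POLR1B and BOP1. They are 10 of the 11074 genes measured, and all 10 were among the 10889 genes with enough signal to be followed in every gradient, called tested genes below (a mean signal of at least 5, and above 0 in at least 15 of the 20 fractions). They were chosen from the table by their function together with their level and their position along the gradients, with those values in view, so their levels and positions are given as a description. The cells were HEK293, a human embryonic kidney line, in 3 states: 2 h of serum starvation, 1 h of amino acid starvation (in Earle's salts to which vitamins and 10% serum had been added), or left in log phase in medium with 10% serum. All 3 states had 10 minutes of cycloheximide, which holds ribosomes on mRNA, before lysis. Each lysate was run on 1 polysome gradient, and poly(A) RNA of fractions 3 to 22 was sequenced, so there were 20 fractions per state and no replicate of any state. No difference below therefore has a replicate check or a p-value, and both starved states were compared with the same log phase gradient.

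Ribosomes are assembled in the nucleolus, where RNA polymerase I transcribes the long precursor of most ribosomal RNAs. Guide RNAs held in protein complexes called snoRNPs direct chemical marks onto that precursor, and many further factors fold, cut and package it into the small and large subunits. Growth signals such as serum and amino acids are known to set the rate of this work, and the mRNAs of ribosomal proteins carry a run of C and T at their very start, the TOP motif, through which their translation follows those signals.

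The starts of the genes are printed because that run sits there. The windows come from RefSeq on GRCh38.p14, with 30 bases before the annotated start and 20 from it onward, and the table held 8 starts for 7 of the 10 genes (POLR1B has 2). The capitals mark the longest unbroken run of C and T that lies within reach of the start (10 bases on either side). The windows lie at chr19:39846360-39846409 (minus strand) for FBL, chr20:2652602-2652651 (plus strand) for NOP56, chrX:154762834-154762883 (plus strand) for DKC1, chr2:231464465-231464514 (minus strand) for NCL, chr12:6568272-6568321 (minus strand) for NOP2, chr9:33473905-33473954 (minus strand) for NOL6, chr2:112542006-112542055 (plus strand) for the first POLR1B start and chr2:112542435-112542484 (plus strand) for the second POLR1B start.
FBL: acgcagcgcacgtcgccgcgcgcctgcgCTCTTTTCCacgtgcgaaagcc
NOP56: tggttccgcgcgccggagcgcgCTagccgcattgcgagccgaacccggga
DKC1: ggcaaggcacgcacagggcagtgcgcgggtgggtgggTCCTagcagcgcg
NCL: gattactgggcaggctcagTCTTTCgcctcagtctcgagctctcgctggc
NOP2: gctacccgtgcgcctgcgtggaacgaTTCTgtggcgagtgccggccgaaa
NOL6: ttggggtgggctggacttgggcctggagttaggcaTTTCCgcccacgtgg
POLR1B first start: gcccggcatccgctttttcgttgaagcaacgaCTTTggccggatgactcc
POLR1B second start: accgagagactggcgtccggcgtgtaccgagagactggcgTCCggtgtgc

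NOP58, NOLC1 and BOP1 are not printed. Of the 8 starts, only that of FBL began with a C followed by at least 4 more C or T. Its run in capitals, 9 bases long, begins at base -2, so part of it lies before the annotated start. Starts of this kind made up 12.5% of the 8, against 59.7% of the 77 starts of ribosomal protein genes. They made up 5.41% of the starts of all tested genes and 4.07% of all 35116 starts in the table. A second pattern, the palindrome CACGTG, which reads the same on both strands, was looked for after the data had been seen. The promoter windows searched for it reach further on both sides of the start than the stretches printed. It was found in 3 of these 8 longer windows (37.5%), against 9.70% of those of tested genes and 7.26% of all. In FBL it began at base 7, where its first C is also the last base of the run in capitals, in NOL6 at base 14 and in NOP2 at base 36, beyond the window printed. These matches describe the letters only.

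Each fraction carries a scale of unstated origin in the deposited values, and the 3 gradients spread their signal differently. The summed gene signal was 163126108 in serum-starved, 183267510 in amino acid-starved and 390571674 in log phase cells, and it was highest in fraction 9 of both starved gradients and in fraction 18 of log phase. The lowest totals were 179014 in fraction 22 of serum-starved, 247998 in fraction 22 of amino acid-starved and 36830.5 in fraction 6 of log phase cells. Whether heavy complexes lie at the low or the high numbers is not stated, so positions are given by number only. Of the markers used to check the cell line, the neurofilament genes NEFM and NEFL stood between 269 and 507 parts per 1000000 (ppm) of gene signal in all 3 gradients. INA, another filament gene, stood between 1.68 and 2.51 ppm. The markers PAX2 and LHX1 were looked for but were not among the 11074 genes. Sums over fractions depend on the scale of each fraction, whereas a gene's share of its own fraction, in ppm of that fraction's gene signal, does not. Both are given below, and both rest on values per transcript length, so that genes can be compared with each other.

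Of the 10 mRNAs, 8 had their highest share of the RNA in fractions 20 to 22 of all 3 gradients. How many of all tested genes did so was not computed, so nothing is read from this count. The median tested gene also had a higher mean share over fractions 18 to 22 than over 8 to 12. Its ratio was 3.25 in serum-starved, 4.39 in amino acid-starved and 1.96 in log phase cells. FBL had its highest share in fractions 17 to 19. NOP56 had its highest in fractions 5 and 6, although its share was also higher over fractions 18 to 22 than over 8 to 12. The plot of shares by fraction shows this for each gene. Fraction 22 held 0.110% of all gene signal in serum-starved, 0.135% in amino acid-starved and 0.395% in log phase cells. The part of this low content in the shares found there was not tested.

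**Figure D1:**
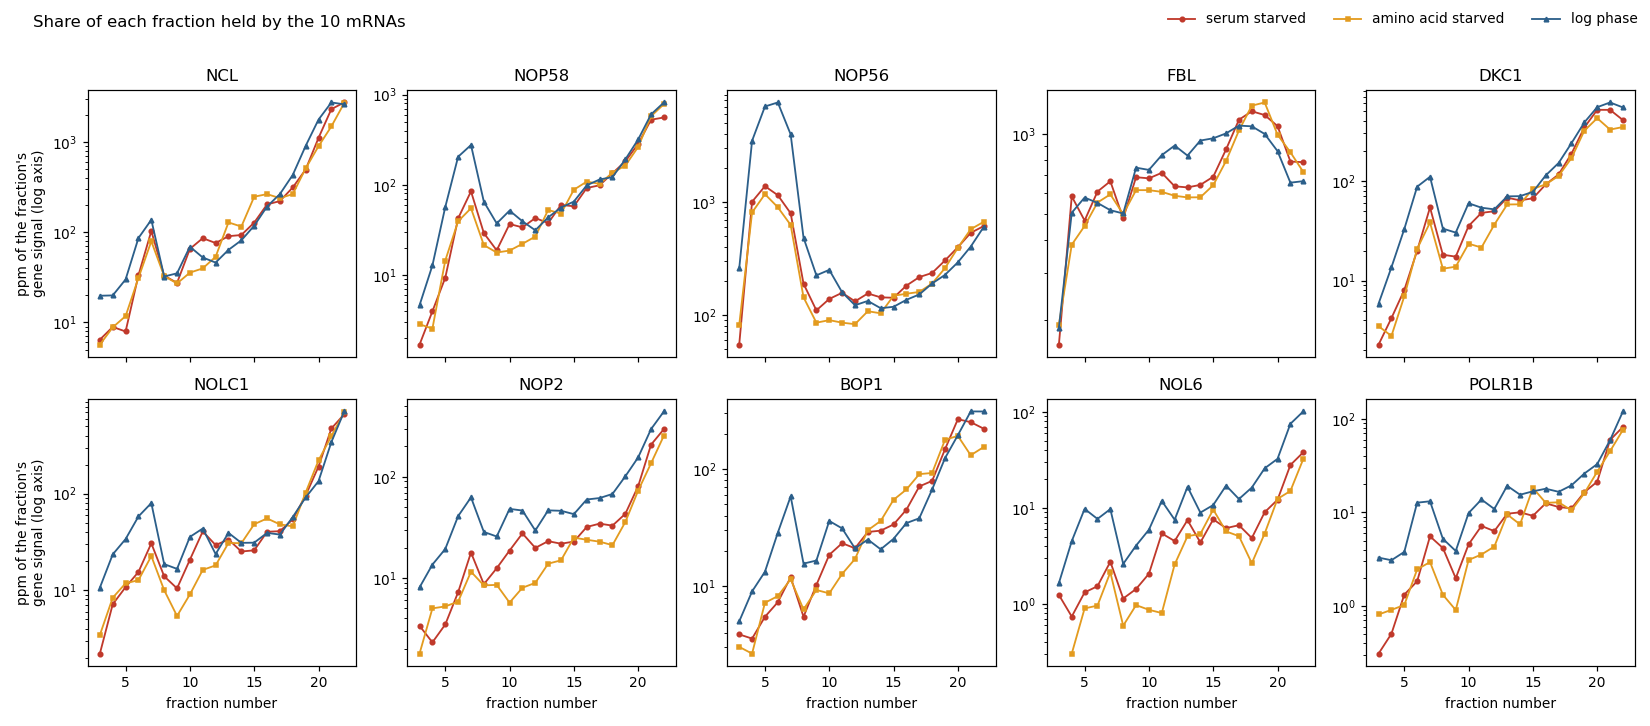
Share of each fraction held by each of the 10 mRNAs (ppm of the fraction's gene signal, log axis) by fraction number, with 1 line per gradient and no replicates. NCL, NOP58, NOLC1, NOP2, NOL6 and POLR1B reach their highest share in fraction 21 or 22 of every gradient, DKC1 and BOP1 in fractions 20 or 21, FBL in fractions 17 to 19, and NOP56 in fraction 5 or 6. A value of 0 (NOL6 in fraction 3 of amino acid-starved cells) is not drawn.

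POLR1B, the second largest subunit of RNA polymerase I, was among the 2 lowest mRNAs of the group. Its share over the 20 fractions was between 0.309 and 81.9 ppm in serum-starved cells (median 8.17). In amino acid-starved cells it was between 0.809 and 76.1 ppm (median 5.87), and in log phase cells between 3.08 and 120 ppm (median 14.6). The highest share was in fraction 22 of each gradient. It was lower than in log phase in 19 of the 20 same-numbered fractions in serum-starved and in 19 in amino acid-starved cells, with median log2 ratios of -0.74 and -1.03. Such ratios of shares, here and below, are not relative to the median tested gene, for which they were not computed. How many tested genes were lower in 19 fractions was not computed either.

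FBL, or fibrillarin, the enzyme that places 2′-O-methyl groups on ribosomal RNA, was the most abundant of the 10 in every gradient. Its share was between 162 and 1220 ppm in serum-starved cells (median 686). It was between 192 and 1316 ppm in amino acid-starved cells (median 611) and between 187 and 1077 ppm in log phase cells (median 789). It was lowest in fraction 3 and highest between fractions 17 and 19 of each gradient. Its mean over fractions 18 to 22 was 1.57 times that over fractions 8 to 12 in serum-starved, 1.77 times in amino acid-starved and 1.14 times in log phase cells, where the median tested gene had ratios of 3.25, 4.39 and 1.96. The ribosomal protein mRNAs had median ratios of 0.313, 0.281 and 0.534, so FBL lay between them and the median gene in all 3 gradients. NOP56 did so too, with ratios of 2.87, 4.29 and 1.38. FBL is the gene with the run of C and T over base 1 in the lines above, whereas the run marked for NOP56 is 2 bases long. Whether the start bears on the place in the gradients was not tested.

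NOP56, a scaffold protein of the same box C/D snoRNPs, had its highest shares at the low-numbered end, while the others had theirs at higher numbers. Its share was between 54.6 and 1387 ppm in serum-starved cells (median 203). It was between 81.3 and 1179 ppm in amino acid-starved cells (median 157) and between 115 and 7669 ppm in log phase cells (median 239). The highest values were in fraction 5 of both starved gradients and in fraction 6 of log phase. Of fractions 4, 5, 6 and 7 it held 1010, 1387, 1154 and 798 ppm in serum-starved cells and 811, 1179, 903 and 629 ppm in amino acid-starved cells. In log phase cells it held 3507, 7062, 7669 and 3995 ppm of these fractions. These fractions stood above all later ones for NOP56 in serum-starved and log phase cells, and in amino acid-starved cells all but fraction 7 did, which was below fraction 22 (669 ppm).

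The mean share of NOP56 over fractions 3 to 7 was 6.05 times that over fractions 8 to 12 in serum-starved, 7.39 times in amino acid-starved and 18.1 times in log phase cells. The median tested gene had 0.597, 0.775 and 0.993, and 25, 30 and 23 tested genes had a higher ratio than NOP56. Of its own deposited signal, NOP56 had 24.6% in fractions 3 to 7 in serum-starved, 22.5% in amino acid-starved and 6.30% in log phase cells, against 1.68%, 1.58% and 0.107% for the median tested gene. More of it lay in fractions 18 to 22, at 30.1%, 25.4% and 53.3%, and its mean share there was 2.87, 4.29 and 1.38 times that over fractions 8 to 12, against 3.25, 4.39 and 1.96 times for the median tested gene. Fractions 3 to 7 held little of the whole: 5.69% of all gene signal in serum-starved, 4.71% in amino acid-starved and 0.299% in log phase cells. The ERCC spike-in RNAs made up 0.103% of the gene and ERCC signal in fraction 6 of serum-starved cells. The values were 0.105% in amino acid-starved and 0.505% in log phase cells. The luciferase spike-in was not counted there and had a larger signal than the ERCC RNAs. In fraction 6 it was 28183.6 in serum-starved, 30686.2 in amino acid-starved and 1865.36 in log phase cells. The gene totals of that fraction were 2283584.5, 2502954.2 and 36830.5. The part of the low content of fractions 3 to 7 in the NOP56 values was not tested.

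NOP58 is the partner of NOP56 on box C/D guide RNAs. Its share was highest in fraction 22 of each gradient, at 559 ppm in serum-starved, 785 in amino acid-starved and 820 in log phase cells. The medians over fractions were 50.2, 50.2 and 65.0 ppm. Its mean share over fractions 3 to 7 was 0.882 times that over fractions 8 to 12 in serum-starved, 1.07 times in amino acid-starved and 2.47 times in log phase cells, the last being the highest of the 10 after NOP56. DKC1, or dyskerin, the pseudouridine synthase of the box H/ACA snoRNPs, had its highest shares in fraction 20 of serum-starved (518 ppm) and amino acid-starved cells (427 ppm) and in fraction 21 of log phase cells (614 ppm). It was lower than in log phase in all 20 fractions of serum-starved and in 19 of amino acid-starved cells, with median log2 ratios of -0.36 and -0.63. On another measure, the level summed over fractions, the median tested gene was itself at -0.43 and -0.59 against log phase.

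**Figure D2:**
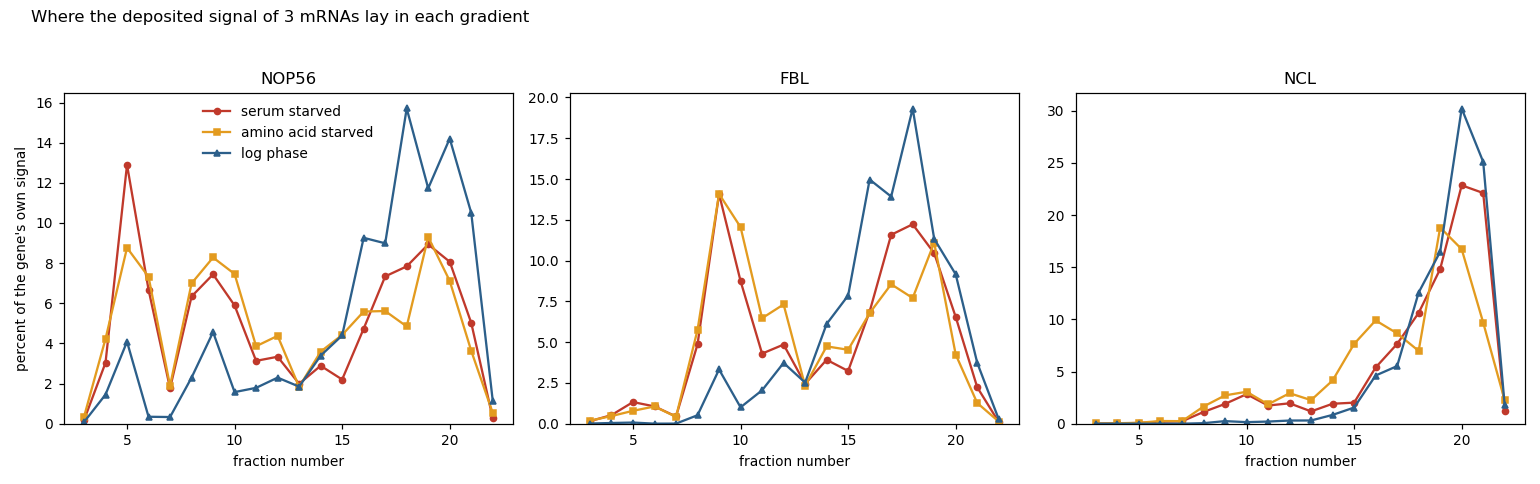
Percent of the deposited signal of NOP56, FBL and NCL found in each fraction, by fraction number, with 1 line per gradient and no replicates. NOP56 has a separate peak at fraction 5 in the starved gradients (12.9% of its signal in serum-starved cells), FBL has peaks at fractions 9 and 18 in serum-starved and 9 and 19 in amino acid-starved cells and 1 main peak at fraction 18 in log phase, and NCL lies mostly in fractions 18 to 22.

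NCL, or nucleolin, an abundant RNA-binding phosphoprotein of the nucleolus, lay furthest toward the high numbers. Its share was between 6.45 and 2728 ppm in serum-starved cells (median 91.6). It was between 5.68 and 2688 ppm in amino acid-starved cells (median 97.2) and between 19.8 and 2727 ppm in log phase cells (median 83.6). Its highest share was nearly equal in the 3 gradients. The mean share over fractions 18 to 22 was 24.2 times that over fractions 8 to 12 in serum-starved, 31.0 times in amino acid-starved and 35.9 times in log phase cells. In log phase 86.1% of its signal lay in fractions 18 to 22, against 48.5% for the median tested gene. NOLC1, the phosphoprotein also called Nopp140, had its highest share in fraction 22 of every gradient, at 665 ppm in serum-starved, 695 in amino acid-starved and 712 in log phase cells. Its median over fractions was 29.9, 26.6 and 38.4 ppm in that order of gradients.

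NOP2, which methylates a cytosine of the large subunit's ribosomal RNA, had a lower share in every starved fraction. It was between 2.31 and 297 ppm in serum-starved cells (median 22.4). In amino acid-starved cells it was between 1.79 and 256 ppm (median 12.7), and in log phase cells between 8.08 and 444 ppm (median 46.6). The ranges of the 3 gradients overlap, but fraction by fraction all 20 of serum-starved and all 20 of amino acid-starved cells were below log phase, with median log2 ratios of -1.003 and -1.59. BOP1, a subunit of the PeBoW complex that acts in large subunit assembly, had its highest share in fraction 20 of serum-starved (267 ppm) and amino acid-starved cells (192 ppm) and in fraction 21 of log phase cells (311 ppm). It was below log phase in 11 fractions of serum-starved and in 13 of amino acid-starved cells.

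NOL6, a component of the small subunit processome, was the other low mRNA of the group. Its share was between 0.741 and 38.1 ppm in serum-starved cells (median 4.70). In amino acid-starved cells it was between 0 and 32.4 ppm (median 2.62), and in log phase cells between 1.65 and 102 ppm (median 10.3). Like NOP2, it was below log phase in all 20 fractions of both starved gradients, with median log2 ratios of -1.26 and -1.58.

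Shares that were lower in all 20 fractions were thus seen for 3 of the 10 mRNAs without serum (NOL6, NOP2 and DKC1) and for 2 without amino acids (NOL6 and NOP2). Among all tested genes this held for 2.84% (serum-starved) and 1.67% (amino acid-starved). The other 7 mRNAs were lower in 9 (NOP56) to 19 (POLR1B) fractions without serum, and the other 8 in 12 (FBL) to 19 (POLR1B and DKC1) without amino acids. This count does not depend on the scale of the fractions, but neighbouring fractions of a gradient are not replicates. It was chosen, like the ratios of shares between blocks of fractions, after the data had been seen. The 10 mRNAs were themselves chosen with their levels in view, so nothing further is read from the count. A small bump in fraction 7, above fractions 6 and 8, was also looked for after the data had been seen, and was present for 9 of the 10 mRNAs in serum-starved, 9 in amino acid-starved and 8 in log phase cells. Such a bump was also present for 81.1%, 70.3% and 68.7% of all tested genes, so nothing is read from it about these mRNAs.

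The level of each mRNA was summed over the 20 fractions and expressed in ppm of the gradient's gene signal. In bulk RNA such as this, less of an mRNA in each cell cannot be told apart from fewer cells that hold it. FBL had a level of 802 ppm in serum-starved, 714 in amino acid-starved and 950 in log phase cells, and NCL had 236, 162 and 587 ppm. NOP56 had 242, 168 and 208 ppm, DKC1 had 114, 77.1 and 226, and NOP58 had 85.0, 64.6 and 152. The remaining 5 were lower. BOP1 had 54.9, 43.3 and 78.9 ppm, NOLC1 had 50.5, 37.6 and 73.5, and NOP2 had 29.7, 17.0 and 83.8. POLR1B had 9.33, 7.39 and 21.6 ppm and NOL6 had 5.13, 3.28 and 20.0. All but NOP56 stood highest in log phase, and all 10 stood lowest in amino acid-starved cells. The share of tested genes in the same order was not computed, so nothing is read from these counts.

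The median tested gene also had a lower level in ppm in the starved cells, by a log2 ratio of -0.43 without serum and -0.59 without amino acids. In amino acid-starved over serum-starved cells its log2 ratio was -0.17. Levels were therefore compared relative to the median tested gene. A level was called different when the log2 ratio (with 1 ppm added) reached 1 and stayed at 0.5 or more in odd and in even fractions taken apart, which is a rule of size and not a test. Without serum, NOL6 (log2 ratio -1.35, or 0.393 times) and NOP2 (-1.03, or 0.488 times) were lower by this rule, and 0 of the 10 were higher. The background was 0.903% of tested genes lower and 3.05% higher. Without amino acids, NOL6 (-1.71, or 0.306 times), NOP2 (-1.65, or 0.319 times) and NCL (-1.26, or 0.417 times) were lower and 0 were higher, against 2.83% of tested genes lower and 4.96% higher. The level and position of the 10 mRNAs were used to choose them, so nothing further is read from these counts.

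With every fraction set to the same gene total, NOL6 (-1.09 without serum and -1.46 without amino acids) stayed past the rule, while NOP2 did so only without amino acids (-1.04, and -0.64 without serum) and NCL in neither state (-0.06 and -0.25). NOP2 without serum also missed the rule when fraction 19 or fraction 20 was left out (-0.99 and -0.98), and when fractions 3, 4, 21 and 22 were. DKC1 stood at -0.95 without amino acids, short of the rule, and passed it without fraction 16 (-1.01), without fraction 19 (-1.07) and with 5 ppm added in place of 1 (-1.04). FBL was at 0.19 without serum and 0.18 without amino acids on the deposited scale, and at 0.14 and 0.06 with equal totals. NOP56 was at 0.65 and 0.29 on the deposited scale but at -1.51 and -1.74 with equal totals, so its direction depends on the scale of the fractions. With spike-in scaling NOP2 without serum was also short of the rule (-0.98), and with 5 ppm added in place of 1 NOL6 without serum was (-0.96).

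**Figure D3:**
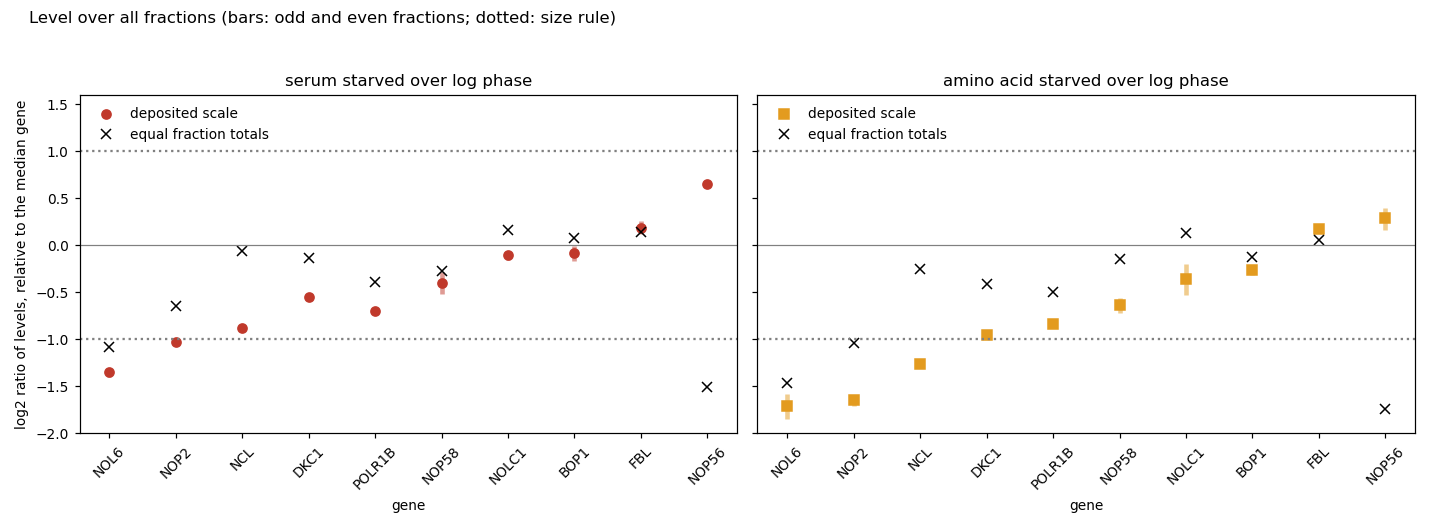
Log2 ratio of each mRNA's level over all 20 fractions, relative to the median tested gene, in serum-starved (left) and amino acid-starved cells (right) over log phase. Coloured points use the deposited scale with bars from odd to even fractions, crosses use equal fraction totals, and dotted lines mark the size rule at 1 and -1. NOL6 is below -1 on both scales in both panels, and NOP56 changes side between the scales.

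The position of an mRNA was taken as its mean fraction number weighted by deposited signal. In log phase the positions were 19.27 for NCL, 18.72 for BOP1, 18.57 for NOLC1, 18.54 for DKC1 and 18.51 for NOP58, and then 18.17 for NOL6, 18.14 for NOP2 and 17.78 for POLR1B. FBL at 16.56 and NOP56 at 16.27 were below the median tested gene at 16.9. NCL lay at percentile 99.9 of all tested genes and BOP1 at 97.6, against 37.7 for FBL and 29.8 for NOP56. Computed from odd and even fractions apart, the position of NCL did not overlap that of any other. BOP1, NOLC1, DKC1 and NOP58 overlapped each other, as did NOL6, NOP2 and POLR1B, and as did FBL and NOP56. NOP58, NOLC1 and DKC1 also overlapped NOL6 and NOP2, and BOP1 overlapped NOL6, while POLR1B did not overlap FBL.

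All 10 positions were lower in both starved gradients than in log phase on the deposited scale, though with equal fraction totals the median position of the 10 was higher in them, at 18.4 without serum and 18.5 without amino acids, against 17.6 in log phase. NCL was at 18.12 in serum-starved and 17.07 in amino acid-starved cells, FBL at 14.18 and 13.51, and NOP56 at 12.64 and 12.39. The other 7 lay between 16.14 (NOL6) and 17.54 (DKC1) in serum-starved and between 15.60 (NOL6) and 16.84 (NOLC1) in amino acid-starved cells. The median tested gene was lower too, at 15.6 and 15.1, a raw difference of -1.35 and -1.80 fractions from log phase, and a shift is given relative to that.

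**Figure D4:**
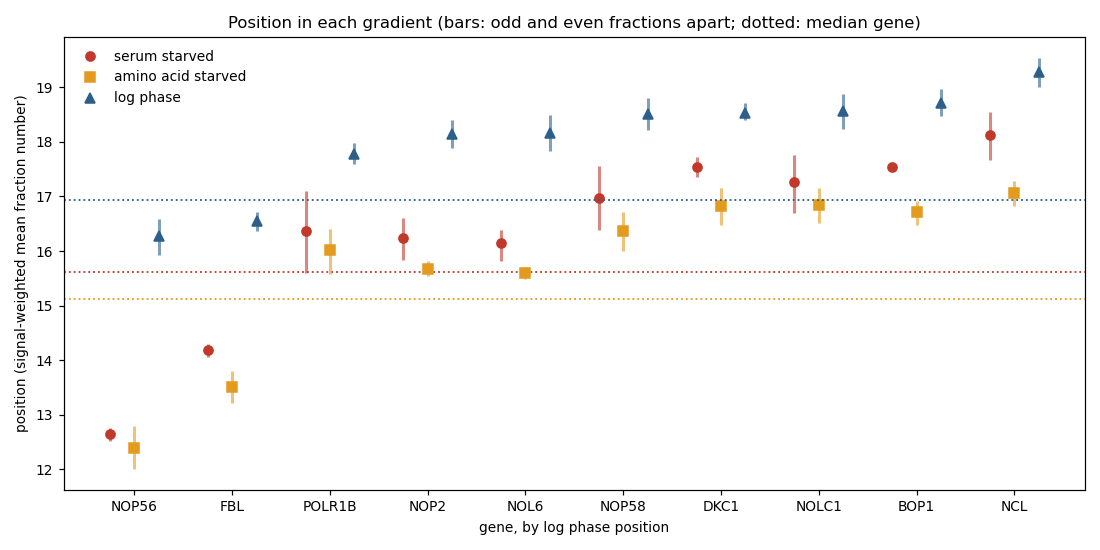
Position of each mRNA (signal-weighted mean fraction number) in the 3 gradients, genes ordered by log phase position. Bars run from the odd to the even fractions, which is a spread within a gradient and not a replicate error, and dotted lines mark the median tested gene. Only NOP56 and FBL lie below the median gene of each gradient.

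A shift was called by a rule of the same kind, at 1 fraction or more and 0.5 or more in odd and in even fractions. Without serum, NOP56 (-2.28) and FBL (-1.02) were lower by this rule and 0 of the 10 were higher, against a background of 9.86% of tested genes lower and 5.7% higher. Without amino acids, NOP56 (-2.09) and FBL (-1.25) were again lower and 0 were higher, against 9.57% lower and 6.84% higher. The other 8 mRNAs were between -0.68 (NOL6) and 0.35 (DKC1) without serum and between -0.77 (NOL6) and 0.09 (DKC1) without amino acids. The FBL value without serum rested on few fractions: it was -0.64 without fraction 9 and missed the rule also without fraction 4, 5, 6, 8 or 10, and without amino acids it missed it without fraction 9 (-0.89).

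The NOP56 shift turned round with the scale. With equal fraction totals it was 2.24 without serum and 2.62 without amino acids, and with spike-in scaling it was 0.38 and 0.45. Without fractions 3 to 7, a check added after the data had been seen, it was -0.82 and -0.93 on the deposited scale and 0.67 and 1.24 with equal totals. FBL kept its sign with equal totals (-1.22 and -1.13) and with spike-in scaling (-0.86 and -0.90, short of the rule), but not with log2 signal in place of signal as the weight (0.10 and 0.16). Without fractions 3 to 7 it was -0.89, short of the rule, and -1.17 on the deposited scale, and -0.21 and -0.20, both short of the rule, with equal totals. Under equal totals NOL6 (-1.40 and -1.22) and NCL (-1.40 and -1.73) were also lower by the rule in both states, and DKC1 (-1.21) and BOP1 (-1.65) without amino acids, whereas on the deposited scale none of these 4 was.

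The 2 starvations were also compared with each other. In amino acid-starved over serum-starved cells, 0 of the 10 passed either rule in either direction. For shifts the background was 1.06% of tested genes lower and 2.01% higher, and for levels it was 0.0401% lower and 0.187% higher. The count is near these shares, so nothing is read from it about these mRNAs. Level ratios were between -0.60 (NOP2) and 0.01 (FBL) on the log2 scale and 9 of 10 were below 0. Shifts were between -0.58 (NCL) and 0.21 (NOP56).

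Wider lists of the same machinery were read in the same way. They were drawn up from its known parts, but with earlier results of these data known, so they are given as a description. Each is given by its counts and median, where the median of all tested genes is 0 by construction. By the level rule 0.903% of tested genes were lower and 3.05% higher without serum. Without amino acids the shares were 2.83% and 4.96%. The 10 mRNAs had a median level ratio of -0.48 without serum and -0.74 without amino acids, with 8 of 10 below 0 in each state. For 42 other genes of the small subunit processome the medians were -0.35 and -0.52, with 38 and 41 of 42 below 0, 3 and 6 lower by the rule and 0 higher. For large subunit assembly factors they were -0.41 and -0.58, with 36 and 39 of 44 below 0, 1 and 6 lower by the rule and 0 higher. With equal totals the medians kept their sign but were smaller, at -0.20 and -0.29 for the small subunit and -0.25 and -0.26 for the large subunit list.

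For 13 genes of RNA polymerase I and its factors the median level ratios were -0.25 and -0.34, with 2 and 3 lower by the rule and 0 and 1 higher. For a list of 14 other genes they were -0.02 and -0.06, with 0 and 4 lower and 0 higher. This list, called the snoRNP list below, held snoRNP proteins and their assembly factors, and also NPM1 and TCOF1. The 11 subunits of the RNA exosome, which trims ribosomal RNA precursors, had -0.23 and -0.29, with 0 past the rule in either direction, and the second of these medians turned to 0.07 with equal totals. The ribosomal proteins themselves stood on the other side. Their median level ratios were 0.75 and 1.04 for the large subunit (46 genes) and 0.78 and 1.08 for the small subunit (31 genes). By the rule, 2 and 25 of the large and 2 and 21 of the small subunit genes were higher, and 0 of these 77 were lower. With equal totals the medians were 0.34 and 0.41 for the large and 0.32 and 0.27 for the small subunit.

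The median shift of the 10 mRNAs was -0.13 without serum and -0.37 without amino acids, which turned to 0.17 and 0.25 with log2 signal as the weight. Median shifts of the wider lists were -0.04 without serum and -0.14 without amino acids for the small subunit processome (3 and 4 genes lower by the rule, 2 and 2 higher). They were -0.06 and -0.20 for large subunit assembly (5 and 8 lower, 3 and 3 higher). For RNA polymerase I they were -0.17 and -0.49 (4 and 4 lower, 1 and 1 higher), the first of which turned to 0.46 with equal totals. Those of the snoRNP list were 0.43 and 0.34 (1 and 1 lower, which was NPM1 in both states, and 1 and 2 higher), and turned to -0.26 and -0.25 with equal totals. Those of the exosome were -0.04, which turned to 0.06 with equal totals, and 0.15 (1 and 0 lower, 2 and 1 higher). Among all tested genes 9.86% and 9.57% were lower by this rule and 5.7% and 6.84% higher. The ribosomal protein lists were at -3.01 and -3.22 for the large and -3.06 and -3.11 for the small subunit, with 45 and 44 of 46 and 31 and 31 of 31 lower by the rule. FBL and NOP56 were the only ones of the 10 mRNAs past the same rule, with smaller shifts than these medians.

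**Figure D5:**
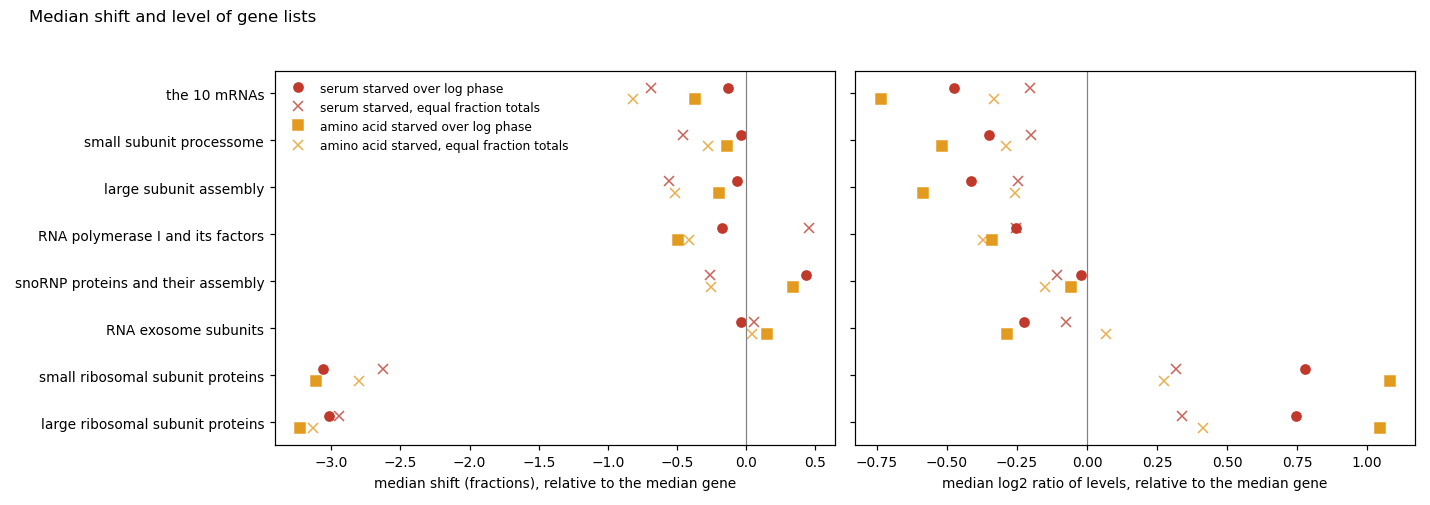
Median shift in fractions (left) and median log2 level ratio (right) of the 10 mRNAs and of 7 gene lists, relative to the median tested gene, in serum-starved and amino acid-starved cells over log phase. Filled symbols use the deposited scale and crosses equal fraction totals. The factor lists lie within 0.5 fractions of 0 on the deposited scale, against about 3 fractions for the ribosomal proteins.

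Within the lists, single genes lay far from their medians. In the large subunit list, NOP53, which also guides the exosome to precursors, had shifts of -3.67 without serum and -3.63 without amino acids, while EBNA1BP2 had 1.75 and 1.82. In the RNA polymerase I list, TAF1D, a subunit of its promoter selectivity factor, had -2.88 and -3.11, but -0.20 and -0.75 with equal totals. TWISTNB, a polymerase subunit, had 1.37 and 1.44. In the small subunit list, NOB1, the nuclease that makes the mature end of the small subunit RNA, had -1.72 and -2.19. The highest there were LTV1 without serum (1.22, but 0.34 with equal totals, with a level ratio of -1.16) and EMG1 without amino acids (1.40). In the snoRNP list, NPM1, a histone chaperone of the nucleolus, had -1.34 and -2.33, and PIH1D1 had 1.25 and 1.30. In the exosome list, EXOSC3 had 2.24 and 2.87. The lowest there were EXOSC6 without serum (-1.13, but 0.06 with equal totals) and EXOSC9 without amino acids (-0.66, short of the rule).

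The 10 profiles were compared with each other over the 60 fractions, using the log2 share with each gene's own mean removed. Pearson's r with the median of the other 9 was between 0.910 (NOL6) and 0.961 (NCL) for 8 of the mRNAs, 0.614 for FBL and 0.109 for NOP56. Among 10221 other genes the median r with the profile of the 10 was 0.741. The 5 most alike were PRC1 (0.988), DHX16 (0.982), SYNCRIP (0.982), COG2 (0.981) and KPNA1 (0.980). The fractions share their gradients and their libraries, so these values describe likeness of shape and carry no p.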

How the data were processed

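Poly(A) RNA of 60 gradient fractions (20 in each of 3 gradients of HEK293 cells) was read from 1 deposited table, and the 3 lysate samples were not analysed here. Per the submitters' processing notes, the tools were kallisto 0.44.0 and sleuth 0.29.0, with the hg38 build. The table's signal was made by the authors as values named TPM with a further scale per fraction of unstated origin, and it was deposited as 1 value per gene symbol and fraction. The depth of each library is unknown, so no counting error could be attached.

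From this signal, shares in parts per 1000000 (ppm) of each fraction's gene total, levels over the 20 fractions and positions were computed in Python 3.11.15 (numpy 2.4.6, pandas 2.3.3, matplotlib 3.10.9), after 29 ERCC rows and 1 luciferase row had been left out of the totals. Genes were followed from a mean signal of 5 in each gradient and values above 0 in at least 15 fractions. Level ratios added 1 ppm, needed a level of 5 in either gradient and, like shifts, were centred on the median tested gene. With 1 gradient per state no test was made; size rules were used. The calculation was tested on simulated data.

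All 10 mRNAs were named, and of each wider list the genes of lowest and highest shift against log phase. Likeness was ranked among genes with a mean signal of at least 10, and the 5 highest were named. The members and lists were chosen with earlier results of these data known. Alternatives were equal fraction totals, spike-in scaling, log2 signal as weight, no centring, all gene rows, a pseudocount of 5, and fractions left out. The spike-in scaling used the summed ERCC signal without luciferase. Starts came from RefSeq (GRCh38.p14), and the planned description of protein lengths was not run because no protein table was used here.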

Additional observations from a re-analysis of the deposited data

How the results depend on the processing

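Each state was 1 gradient, so the spread used here to call a value moved is that between odd and even fractions. Depth is unknown, and fraction 6 of log phase had the smallest total. The cause of the changes below was not tested.

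With equal fraction totals the median position of the 10 mRNAs was 18.4 in serum-starved, 18.5 in amino acid-starved and 17.6 in log phase cells. With spike-in scaling it was 18.1, 17.8 and 18.9, with log2 signal as weight 14.0, 14.0 and 14.9, and without fractions 3, 4, 21 and 22 it was 15.8, 15.7 and 17.4. It was 18.9, 18.9 and 18.8 with equal totals and without fractions 3 to 7, a setting added after the data had been seen.

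The median shift without serum was -0.69 with equal totals, -0.61 when fractions 3 to 7 were also left out, 0.17 with log2 signal, -1.48 without centring and -0.21 without fractions 3, 4, 21 and 22. Without amino acids it was -0.82 with equal totals, 0.25 with log2 signal and -2.17 without centring. For amino acid-starved over serum-starved cells it was 0.10 with equal totals and -0.58 without centring. The median log2 level ratio without serum was -0.20 with equal totals and -0.91 without centring. Without amino acids it was -0.33 with equal totals, -0.67 with spike-in scaling, -0.68 with a pseudocount of 5 and -1.33 without centring. Between the starvations it was -0.19 with equal totals, -0.23 with the pseudocount of 5 and -0.47 without centring.

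By the shift rule, the mRNAs lower without serum numbered 0 with spike-in scaling, 0 with log2 signal, 0 without fractions 3 to 7, 1 without fractions 3, 4, 21 and 22, 1 with equal totals and without fractions 3 to 7, and 9 without centring, and with equal totals 1 was higher. In the same order of settings, the genes lower among all 10889 tested numbered 868, 54, 957, 1030, 965 and 7538. With equal totals 1318 of them were higher. The mRNAs lower without amino acids numbered 5 with equal totals, 0 with spike-in scaling, 0 with log2 signal, 1 without fractions 3 to 7 and 10 without centring, and 1 was higher with equal totals, with or without fractions 3 to 7. In that order of settings, 1737, 1091, 71, 937 and 9407 of all tested genes were lower. With equal totals 1419 were higher with fractions 3 to 7 and 1212 without them. Between the starvations 1 of the 10 mRNAs was lower without centring, against 844 of all tested genes. By the level rule, 1 of the 10 was lower without serum with spike-in scaling, 1 with the pseudocount of 5 and 1 without fractions 3, 4, 21 and 22, and 4 were lower without amino acids with the pseudocount of 5. Among all tested genes these were 39 of 8287, 39 of 8196, 91 of 8124 and 163 of 8200. Without centring 4 of the 10 were lower without serum and 6 without amino acids, against 725 of 8196 and 1814 of 8200 tested genes. The mRNAs were chosen with their levels and positions in view, so nothing is read from these counts.

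The shift of NOP56 reversed to 2.24 without serum and 2.62 without amino acids with equal totals, to 0.38 and 0.45 with spike-in scaling, to 0.49 and 0.55 with log2 signal, and to 0.67 and 1.24 with equal totals and without fractions 3 to 7. That of FBL reversed to 0.10 and 0.16 with log2 signal.

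When each fraction in turn was left out, the median position ranged between 15.9 and 17.0 in serum-starved, 15.7 and 16.5 in amino acid-starved and 17.6 and 18.6 in log phase cells. The median shift ranged between -0.27 and -0.038 without serum, between -0.66 and -0.21 without amino acids and between -0.20 and 0.03 between the starvations. The median level ratio ranged between -0.54 and -0.41, between -0.79 and -0.64 and between -0.31 and -0.19. The count lower by the shift rule was 1 to 2 without serum and 1 to 2 without amino acids, and by the level rule 1 to 2 and 3 to 4.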
